A study of Homo sapiens with 6 samples.

Results

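Amino acid transporter genes were examined in the human hepatocellular carcinoma (HCC) cell line PLC/PRF/5 with and without knockdown of the RNA helicase MTR4. The genes were taken as the protein-coding genes whose symbols place them in the solute carrier families SLC1, SLC3, SLC6, SLC7, SLC36, SLC38 and SLC43. This gave 59 transporter genes of 60675 genes with a row in the count files, and 39 of the 59 passed the filter on low counts. The RNA-seq comparison set 3 libraries with MTR4 knockdown (MTR4 KD) against 3 control libraries, all from the same line grown in serum-supplemented DMEM. The methods describe stable and doxycycline-inducible shRNAs carried by viral vectors, and the comparison is described as cells before and after induction. The sample titles name no doxycycline. No library of doxycycline-treated cells with a scramble shRNA was analysed here, so the drug and the knockdown cannot be told apart in these libraries. In separate mRNA measurements, the paper reports that doxycycline left glycolytic genes unchanged in cells with an inducible scramble shRNA. The labels do not state whether the replicates were separate cultures, so p-values measure the spread between these libraries, which may be technical.

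Amino acids cross the plasma membrane and the lysosomal membrane mainly through carrier proteins. The SLC1 family takes up acidic amino acids or exchanges small neutral ones with glutamine, SLC38 carriers use the sodium gradient to concentrate glutamine and alanine, and the SLC7 light chains exchange amino acids when joined to a heavy chain of the SLC3 family. Cationic transporters of the SLC7 family carry arginine and lysine, and some SLC36 carriers move small amino acids together with protons. SLC43 carriers let branched-chain and aromatic amino acids pass down their gradient. The SLC6 family holds sodium- and chloride-dependent carriers of neurotransmitters, osmolytes, creatine and neutral amino acids. In liver cells these carriers supply glutamine, cystine and arginine, and cancer cells often depend on the glutamine carriers and on leucine uptake.

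Each library had 60686786 to 72708682 reads counted on genes, and expression is given as CPM, the reads of a gene for a common library total after scaling with edgeR's TMM factors. MTR4 (current symbol MTREX) had 72.2, 87.4 and 74.4 CPM in the control libraries and 44.6, 48.8 and 44.1 CPM in the MTR4 KD libraries, with a log2 fold change of -0.77 ± 0.09 (SE) and an adjusted p of 0.00641. Adjusted p-values here come from edgeR's quasi-likelihood test over 18075 genes, with Benjamini-Hochberg adjustment, and a gene is said to rise or fall when its adjusted p is under 0.05. The share of reads without a unique alignment was 34.7% to 37.5% in 3 libraries, namely MTR4 KD replicate 3 with control replicates 1 and 3, and 14.8% to 18.2% in the other 3. They are called the library set with more non-unique reads and the set with fewer. Replicates of the same condition differed more across sets, with a chi-square per degree of freedom between 84.1 and 93.5, than within a set, where it was 7.96 and 4.61. Each set held both conditions, so a second fit with the library set as a covariate was made, and its values stand beside those of the first where a call on a transporter differs. The defining hepatocyte and hepatoma markers were all detected, with a summed level of 25988 to 27692 CPM in control and 25974 to 27786 CPM in MTR4 KD. Of these 13 markers ALB, APOA1, APOH and TTR rose and KRT18 fell, and with the library set as a covariate FGB also rose and KRT8 also fell. Summed markers of other cell types stayed low in both conditions, from 31.3 to 36.5 CPM for leukocytes in control and 26.9 to 29.5 CPM in MTR4 KD, 45.8 to 50.6 and 43.4 to 47.9 CPM for neural cells, 8.24 to 14.6 and 6.44 to 11.4 CPM for fibroblasts, and 0.0995 to 1.70 and 0.244 to 0.571 CPM for endothelial cells. Of the 12 tested markers in the 4 lists 0 passed in edgeR's test, 3 had an unadjusted p under 0.05, and the monocyte marker CD14 passed as lower with DESeq2's Wald test. In the fit with the library set 3 of the 12 passed, each as lower in MTR4 KD. They were CD14 (log2 fold change of -1.43, adjusted p of 0.00821), LYZ of myeloid cells (-0.26, 0.0119) and the fibroblast collagen COL3A1 (-0.82, 0.0398). Their part in the transporter values was not tested. LYZ alone made up most of the leukocyte sum, at 27.9 to 31.6 CPM in control and 24.4 to 25.8 CPM in MTR4 KD. SNAP25 alone made up most of the neural sum, at 40.7 to 46.8 CPM in control and 38.6 to 44.1 CPM in MTR4 KD. In bulk RNA, fewer cells that express a gene and less RNA per cell cannot be told apart.

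To see which transporters the cells carry, levels were compared per kilobase of exon (RPKM), since CPM grows with transcript length. SLC38A2, the amino-acid-responsive glutamine and alanine carrier SNAT2, was the highest of the 39 genes with a mean of 60.1 RPKM over the 6 libraries. It was followed by SLC1A5 (44.2 RPKM), the glutamine exchanger ASCT2, and by SLC43A1 (40.5 RPKM), the leucine carrier LAT3. SLC3A2 (27.9 RPKM), SLC7A5 (27.4 RPKM), SLC38A10 (24.3 RPKM) and SLC38A1 (20.4 RPKM) came next. The level was over 1 RPKM in 25 genes and under 0.1 RPKM in 6, and the 5 highest genes together made up 60.1% to 62.8% of the summed level of all 59 in each library. The summed level of all 59 genes was 353, 332 and 344 RPKM in the control libraries and 309, 308 and 304 RPKM in the MTR4 KD libraries. The groups of 3 did not overlap in this sum. Most of the difference lay in SLC38A2 (69.6 RPKM in control and 50.6 in MTR4 KD) and SLC1A5 (50.4 and 38.1). Other genes went the other way, such as SLC3A2 (26.1 and 29.7). SLC38A2 made up 20.6%, 20.9% and 19.4% of the sum in control and 16.9%, 15.7% and 16.9% in MTR4 KD. The plot of levels per kilobase shows the order of the genes and the shift of each.

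**Figure D1:**
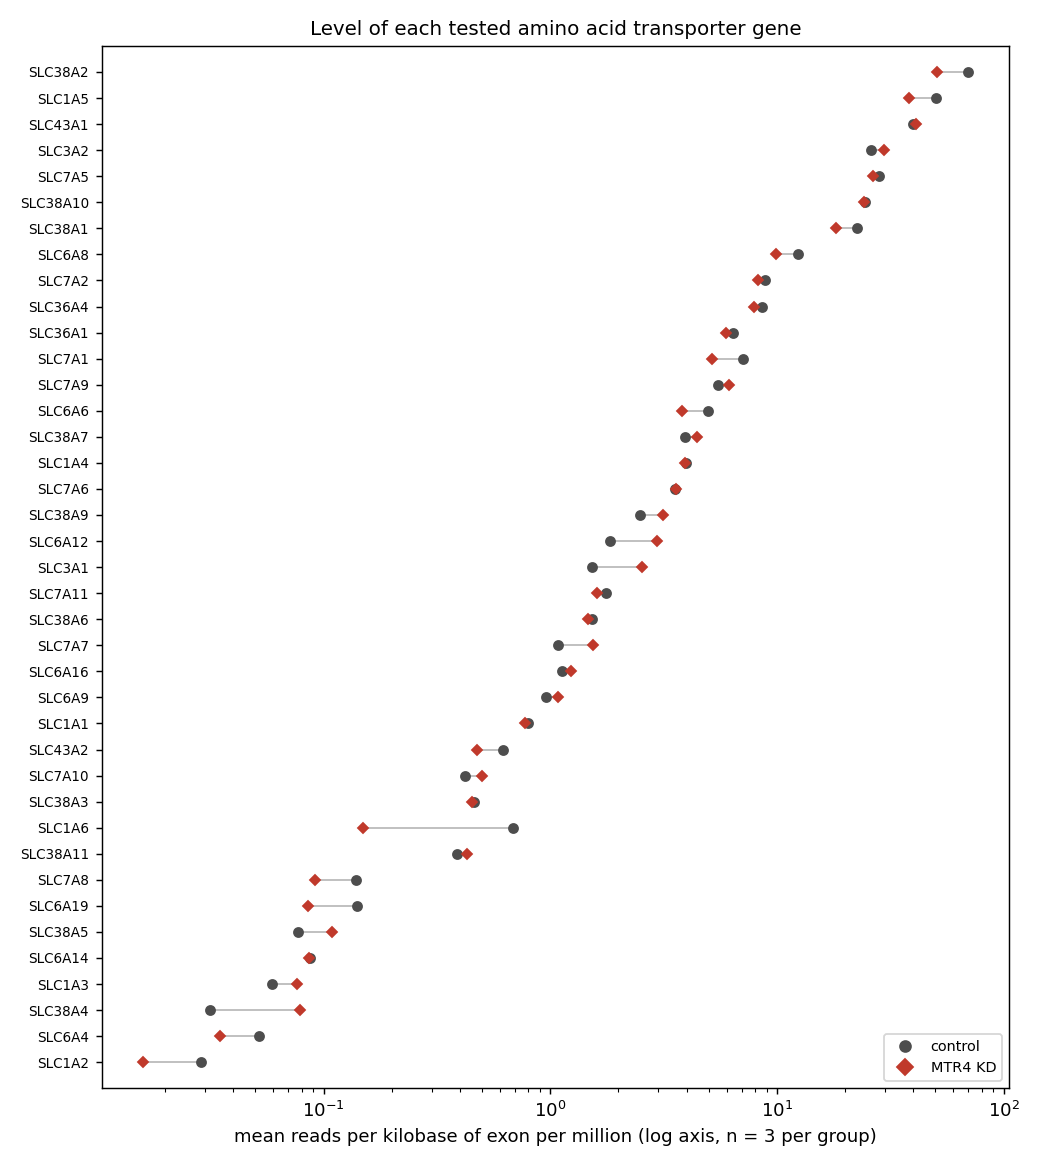
Mean level of each of the 39 tested amino acid transporter genes in RPKM (horizontal log axis), for 3 control libraries (grey circles) and 3 MTR4 KD libraries (red diamonds), ordered by the mean of all 6 libraries. Means run from 0.0159 RPKM for SLC1A2 in MTR4 KD to 69.6 RPKM for SLC38A2 in control, and SLC1A6 shows the widest gap between the conditions among the genes that rose or fell.

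The other 20 transporter genes had at most 70 reads over the 6 libraries and were not tested. They include the glycine transporter SLC6A5, which had no read in any library. A count of 0 allows up to 3 reads per library. SLC7A3, a cationic transporter, had 2, 63 and 0 reads in the control libraries and 0, 5 and 0 in the MTR4 KD libraries. SLC6A15, a neutral amino acid carrier of the brain, had 2, 26 and 0 reads in control and none in MTR4 KD. Control replicate 2 alone held nearly all reads of both genes. That library was also the highest for the endothelial receptor TEK, with 94 of 98 reads, and for the fibroblast collagen COL1A2, with 338 of 464 reads. Of the same marker lists, COL3A1 and KDR were highest there too. COL1A1, PDGFRB, DCN, LUM, CDH5 and VWF had their highest CPM in other libraries, and DCN had 0 reads in control replicate 2. The source of the reads in that library was not tested.

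After MTR4 knockdown 8 of the 39 tested transporter genes passed the test. SLC1A6, SLC7A1, SLC38A2, SLC1A5 and SLC6A6 fell, and SLC3A1, SLC6A12 and SLC7A7 rose. The 3 that rose are 7.69% of the tested transporters, beside 1.48% of all 18075 tested genes that rose. The 5 that fell are 12.8%, beside 2.12% of all tested genes that fell. Of the 13751 tested protein-coding genes, the class of all the transporters, 1.67% rose and 2.61% fell. Only SLC1A6 also passed a fold change of 2, as did 0.83% of all tested genes. The large fall of SLC1A6 was known when this group of genes was chosen, so its place in these counts was fixed beforehand. The median log2 fold change was -0.03 over the tested transporters and 0.01 over all tested genes, with 23 transporters below 0 and 16 above. The levels of every MTR4 KD library lay above those of every control library for 7 transporters (17.9%), where the share over all tested genes was 12.1%. They lay below for 13 transporters (33.3%), where the share over all tested genes was 12.6%. With the library set as a covariate 6 transporters rose (15.4%) and 11 fell (28.2%), beside 9.43% and 10.8% of all tested genes, and the 17 included all 8 of the fit without it. Leaving out control replicate 1, control replicate 3, MTR4 KD replicate 1 or MTR4 KD replicate 2 reduced the 8 genes to 2, 5, 3 and 2. SLC1A6 and SLC3A1 passed the test whichever library was left out. The plot of fold changes by role shows the 39 genes with their intervals.

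**Figure D2:**
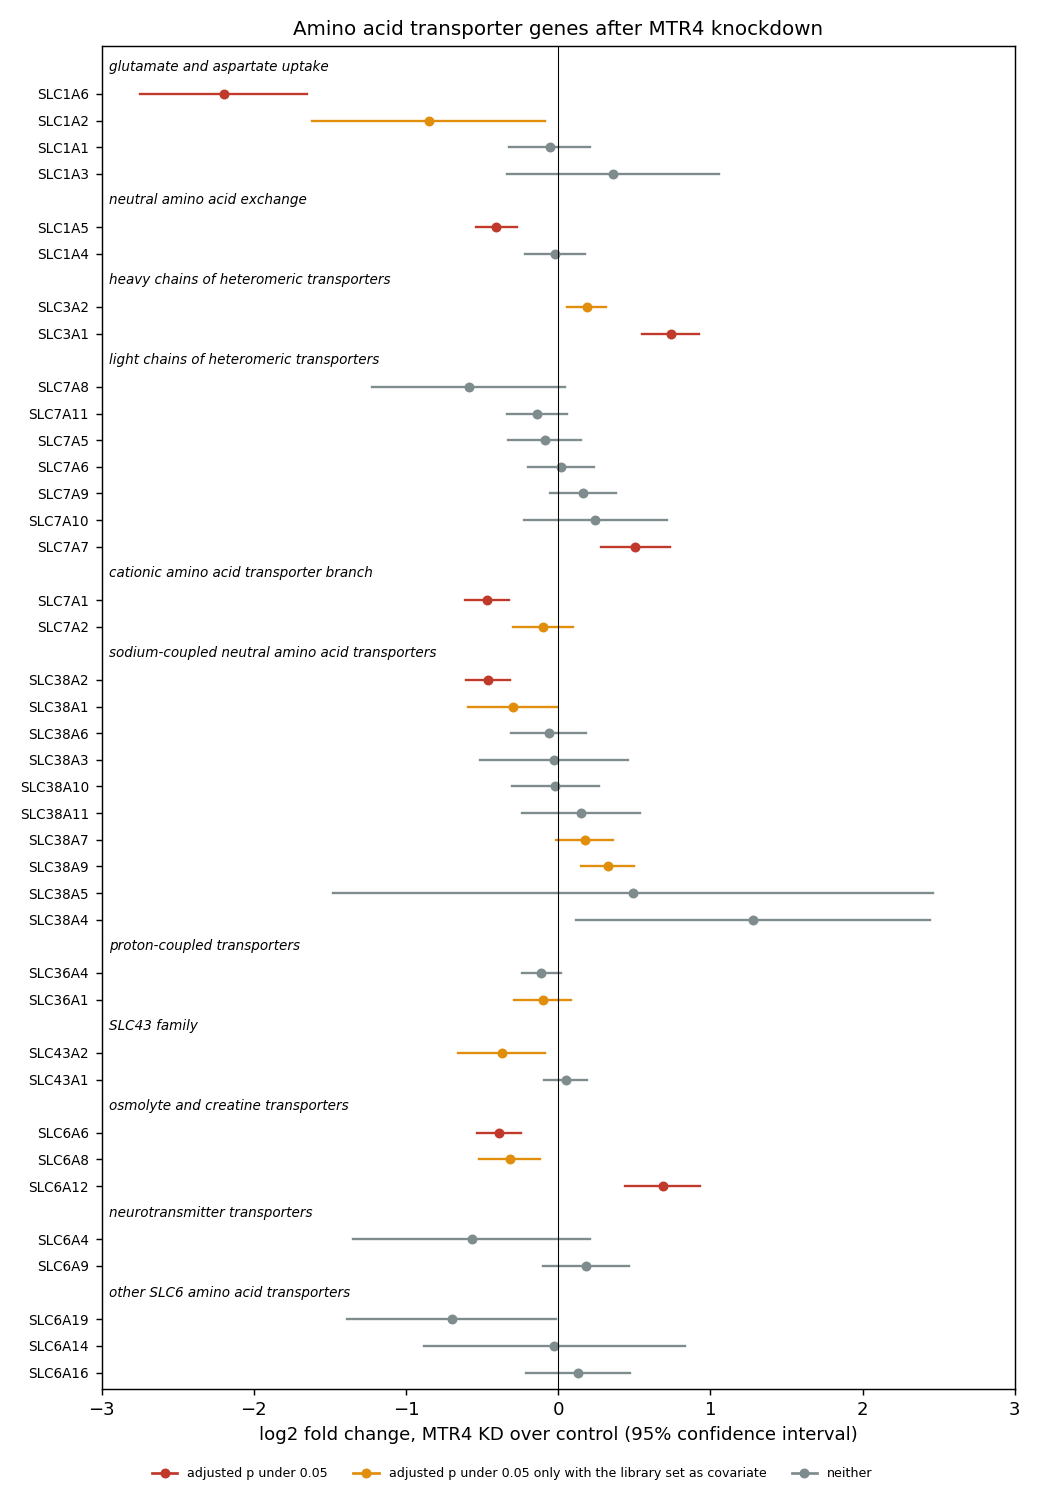
Log2 fold change of each tested transporter gene, MTR4 KD over control (horizontal axis), with its 95% confidence interval, grouped by role (n = 3 libraries per condition). Red marks the 8 genes with an adjusted p under 0.05, orange the 9 that pass only with the library set as a covariate, and grey the rest; SLC1A6 at -2.20 is the lowest.

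The promoters of the genes that rose or fell were read for motifs of factors known to act on amino acid supply. RefSeq windows (GRCh38.p14) from 250 bases before to 50 bases after the first listed start were found for 44 of the 59 transporter genes and for 5 of the 8 that rose or fell. The windows of SLC3A1, SLC6A12 and SLC6A6 were not used here. The amino acid response element TGATGNAA, read by ATF4, was searched on both strands together with the E-box CACGTG and the antioxidant response element TGACNNNGC, read by NRF2, and no 2 of these matches overlapped. The 120 bases before the start of the 5 genes are given in lower case, 5′ to 3′ on the strand of the gene, with matches to the searched motifs in capitals. They are shown so that the 4 genes that fell and SLC7A7, which rose, can be read side by side.
SLC1A6, chr19:15010644-15010763, minus strand: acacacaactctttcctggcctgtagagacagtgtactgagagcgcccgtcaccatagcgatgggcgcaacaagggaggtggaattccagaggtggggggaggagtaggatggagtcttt
SLC38A2, chr12:46372774-46372893, minus strand: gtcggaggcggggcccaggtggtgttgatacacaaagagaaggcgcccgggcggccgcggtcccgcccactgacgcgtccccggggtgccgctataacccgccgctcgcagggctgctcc
SLC1A5, chr19:46788595-46788714, minus strand: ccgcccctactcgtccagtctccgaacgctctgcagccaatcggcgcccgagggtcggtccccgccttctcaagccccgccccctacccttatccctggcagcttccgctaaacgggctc
SLC7A1, chr13:29595689-29595808, minus strand: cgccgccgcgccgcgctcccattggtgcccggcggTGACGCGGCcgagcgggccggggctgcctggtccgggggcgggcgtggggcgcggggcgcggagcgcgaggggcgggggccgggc
SLC7A7, chr14:22819792-22819911, minus strand: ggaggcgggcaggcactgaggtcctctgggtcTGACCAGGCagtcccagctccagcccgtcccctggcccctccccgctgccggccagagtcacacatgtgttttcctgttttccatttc

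The antioxidant response element was found in the windows of SLC7A1 and SLC7A7, at 85 and 88 bases before the start, and SLC7A1 fell while SLC7A7 rose. In 44 transporter promoters this element was present in 5, beside 13.6% of 27305 promoters. The amino acid response element was present in 4 of the 44, those of SLC1A3, SLC3A2, SLC7A1 and SLC38A1, beside 3.67% of all promoters. In SLC7A1 it lay 8 to 15 bases after the start and so outside the printed stretch. The E-box was present in 6 of the 44, those of SLC1A7, SLC6A16, SLC7A5, SLC38A5, SLC38A7 and SLC43A1, beside 7.43% of all promoters, and in none of the 5 genes that rose or fell. GC content of the 250 bases before the start was 84.4% for SLC7A1, 73.6% for SLC38A2, 66.8% for SLC1A5, 63.2% for SLC1A6 and 58.8% for SLC7A7. A match is a run of letters and was not tested as a binding site. Bases outside the windows were not searched, so a window without a match does not show that the gene lacks the element.

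The largest fall was that of SLC1A6, the glutamate and aspartate transporter EAAT4, best known from Purkinje cells of the cerebellum. The gene, ENSG00000105143, is at 14950033 to 15010643 of chromosome 19 in GRCh38. SLC1A6 had 5.63, 4.38 and 5.72 CPM in control replicates 1 to 3 and 0.831, 1.09 and 1.5 CPM in MTR4 KD replicates 1 to 3. Every control library lay above every MTR4 KD library by a wide margin. The means were 5.24 ± 0.75 and 1.14 ± 0.34 CPM (SD, n = 3), a 4.58-fold lower level with a log2 fold change of -2.20 ± 0.23 (SE) and an adjusted p of 0.00422 in edgeR's quasi-likelihood test. The log2 difference was -1.90 within the library set with more non-unique reads and -2.16 within the other. Leaving out each library in turn gave adjusted p-values from 0.00377 to 0.0441. The fall was known from these data when the genes were chosen, so these p-values are no independent evidence of it. The values rest on 347, 317 and 345 reads in control and 51, 73 and 92 reads in MTR4 KD. CCDC105, which shares exon bases with SLC1A6 on the opposite strand, had 0 reads in every library.

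The other carriers of acidic amino acids did not pass the test. SLC1A1, the transporter EAAT3 of kidney and neurons, had 3.28, 3.16 and 3.10 CPM in control and 2.97, 3.05 and 3.16 CPM in MTR4 KD. Its groups overlapped, with a log2 fold change of -0.05 and a 95% interval of -0.32 to 0.21. SLC1A2, the transporter EAAT2 that clears glutamate in brain and is also found in liver, had 0.519, 0.898 and 0.547 CPM in control and 0.407, 0.389 and 0.294 CPM in MTR4 KD. All 3 MTR4 KD libraries lay below control, with a log2 fold change of -0.85 and an adjusted p of 0.224. With the library set as a covariate these were -1.03 and 0.0445. The values of SLC1A2 rest on only 32, 65 and 33 reads in control and 25, 26 and 18 in MTR4 KD. Without control replicate 2 its log2 fold change was -0.55, with an adjusted p of 0.359 in edgeR's test. The glial transporter SLC1A3 had a log2 fold change of 0.36 with an interval of -0.34 to 1.06.

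Among the exchangers of small neutral amino acids SLC1A5 fell. SLC1A5 (ENSG00000105281, chromosome 19, 46774883 to 46788594) had 169, 161 and 174 CPM in the control libraries and 128, 128 and 125 CPM in the MTR4 KD libraries. The groups did not overlap and the 3 MTR4 KD values were almost equal. The log2 fold change was -0.41 ± 0.06 (SE) with an adjusted p of 0.0128 in edgeR's test, a 1.33-fold lower level, and the difference was -0.46 and -0.34 within the set with more non-unique reads and the other set. The call was lost without control replicate 1, control replicate 3, MTR4 KD replicate 1 or MTR4 KD replicate 2, with adjusted p-values between 0.0709 and 0.0934. The related exchanger SLC1A4, which prefers alanine, serine and cysteine, had 27.6 ± 2.0 CPM in control and 27.2 ± 1.6 CPM in MTR4 KD (SD, n = 3), with a log2 fold change of -0.02 and an interval of -0.22 to 0.18.

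Sodium-coupled SLC38 transporters, of which 10 of 11 were tested, held 36.6% of the summed transporter level in control and 33.6% in MTR4 KD. SLC38A2 (ENSG00000134294, chromosome 12, 46358188 to 46372773) had 472, 452 and 434 CPM in control and 340, 315 and 334 CPM in MTR4 KD. The groups were far apart in comparison with their spread. This was a log2 fold change of -0.46 ± 0.06 (SE) and the adjusted p was 0.0104 in edgeR's test, a 1.37-fold lower level. The difference was -0.44 and -0.47 within the library sets. The call was lost without control replicate 1, MTR4 KD replicate 1 or MTR4 KD replicate 2, at adjusted p-values between 0.0625 and 0.0764.

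SLC38A1, the related plasma membrane carrier SNAT1, lies next to SLC38A2 in the same region of chromosome 12, from 46183063 to 46269043. It had 214, 258 and 204 CPM in control and 198, 195 and 156 CPM in MTR4 KD. In each group the libraries of the set with fewer non-unique reads were the higher ones, and control and MTR4 KD did not overlap. In log2 terms the difference was -0.30 with an adjusted p of 0.257, and -0.41 with 1.6e-05 when the library set was a covariate. Within the sets the difference was -0.42 and -0.39. The ratio of SLC38A1 to SLC38A2 in RPKM was 0.323 ± 0.042 in control and 0.362 ± 0.052 in MTR4 KD (SD, n = 3), and its values overlapped.

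The lysosomal carriers SLC38A9 and SLC38A7 passed the test only when the library set was a covariate or, for SLC38A9, under a few other settings. SLC38A9, the lysosomal carrier that reports arginine to mTORC1, had 22.2, 22.8 and 21.2 CPM in control and 27.5, 29.2 and 26.1 CPM in MTR4 KD. Its groups did not overlap, but it did not pass the test, with a log2 fold change of 0.33 and an adjusted p of 0.0665. SLC38A7, the lysosomal glutamine exporter, had 27.6, 24.1 and 26.9 CPM in control and 28.3, 29.6 and 30.8 CPM in MTR4 KD, with a log2 fold change of 0.18 and an adjusted p of 0.293. With the library set as a covariate both rose, by 0.29 (adjusted p of 0.00369) and 0.22 (adjusted p of 0.0155) on the log2 scale. SLC38A9 also passed with DESeq2's Wald test (adjusted p of 0.0235), among protein-coding genes alone (0.0451) and among genes with at least 1 CPM in 3 libraries (0.0480).

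SLC38A10, a broadly expressed carrier of glutamine and glutamate, had 209, 159 and 212 CPM in control and 176, 190 and 206 CPM in MTR4 KD. The lowest value was that of control replicate 2, and the groups overlapped, with a log2 fold change of -0.02 and an interval of -0.31 to 0.27. SLC38A4, a carrier of the adult liver, was low in these cells, with 6 to 32 reads per library. It had 0.0973, 0.180 and 0.116 CPM in control and 0.522, 0.225 and 0.228 CPM in MTR4 KD. At 1.28 its log2 difference was the highest among the 39 tested transporters in the fit without a covariate, but it had an interval of 0.12 to 2.44 and an adjusted p of 0.225. The liver glutamine carrier SLC38A3 had 1.82 ± 0.29 and 1.79 ± 0.34 CPM (SD, n = 3), and SLC38A5, SLC38A6 and SLC38A11 did not pass the test either, with log2 fold changes of 0.49, -0.06 and 0.15.

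Heteromeric transporters consist of a heavy chain, which brings the complex to the membrane, and a light chain, which carries the amino acids. The heavy chain SLC3A1, known as rBAT, forms the cystine and dibasic amino acid transporter with the light chain SLC7A9. SLC3A1 (ENSG00000138079, chromosome 2, 44275480 to 44322437) had 9.49, 10.3 and 10.1 CPM in control and 17.0, 17.2 and 15.7 CPM in MTR4 KD. The lowest MTR4 KD value lay well above the highest control value. Its log2 fold change was 0.74 ± 0.08 (SE) with an adjusted p of 0.00478 in edgeR's test, a 1.67-fold higher level, and the difference was 0.68 and 0.72 within the library sets. PREPL, which shares exon bases with SLC3A1 on the opposite strand, had a log2 fold change of 0.10. Another gene on the same strand, ENSG00000285542, also shares exon bases with SLC3A1 and was not among the counted genes. Whether the counting used strand is not stated, so reads in the overlap with PREPL may be left out. Leaving out each library in turn gave adjusted p-values from 0.00659 to 0.0425.

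SLC7A9, the partner of SLC3A1, had 14.3 ± 0.92 CPM in control and 16.0 ± 1.2 CPM in MTR4 KD (SD, n = 3), with a log2 fold change of 0.16 and an interval of -0.05 to 0.38. The ratio of SLC3A1 to SLC7A9 in RPKM was 0.248, 0.307 and 0.278 in control and 0.457, 0.395 and 0.389 in MTR4 KD. The heavy chain mRNA was below that of its light chain in all 6 libraries, and the ratios of the groups did not overlap.

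SLC3A2, the heavy chain CD98 shared by most light chains, had 169, 162 and 170 CPM in control and 190, 193 and 187 CPM in MTR4 KD. All MTR4 KD libraries lay above control, but the gene did not pass the test. The log2 fold change was 0.19 with an adjusted p of 0.126, and with the library set as a covariate the adjusted p was 0.00541 at the same log2 fold change of 0.19. The ratio of SLC3A2 to the sum of its light chains SLC7A5, SLC7A6, SLC7A7, SLC7A8, SLC7A10 and SLC7A11 in RPKM was 0.688, 0.815 and 0.734 in control and 0.849, 0.888 and 0.896 in MTR4 KD. The ratios between transporters were chosen after the values were seen and are given without a test.

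Of 8 light chains 7 were tested, and SLC7A7 rose. SLC7A7, the light chain y+LAT1 that exports arginine and lysine in exchange for neutral amino acids and sodium, is ENSG00000155465 on chromosome 14 from 22773222 to 22819791. It had 6.02, 6.08 and 5.34 CPM in control and 8.43, 8.53 and 7.83 CPM in MTR4 KD. The groups did not overlap. This was a log2 fold change of 0.51 ± 0.10 (SE) with an adjusted p of 0.0360 in edgeR's test, a 1.42-fold higher level, with 0.46 and 0.48 within the library sets. The call was lost without control replicate 1, control replicate 3, MTR4 KD replicate 1 or MTR4 KD replicate 2, at adjusted p-values between 0.138 and 0.172. SLC7A6, a light chain with the same kind of exchange, had 27.0 ± 1.9 and 27.4 ± 2.4 CPM (SD, n = 3), with a log2 fold change of 0.02 and an interval of -0.20 to 0.24. The ratio of SLC7A7 to SLC7A6 in RPKM was 0.305 ± 0.0033 in control and 0.428 ± 0.022 in MTR4 KD (SD, n = 3).

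SLC7A5, the leucine transporter LAT1 often raised in tumors, had 148, 114 and 142 CPM in control and 130, 126 and 123 CPM in MTR4 KD. Control replicate 2 was the lowest and control replicates 1 and 3 were the highest of the 6. In log2 terms the difference was -0.09 with an interval of -0.33 to 0.15, and it was -0.24 within the library set with more non-unique reads and 0.18 within the other. Its pseudogene SLC7A5P1 had 266 reads in all 6 libraries together. SLC7A11, the cystine and glutamate exchanger xCT, had 17.0 ± 1.0 and 15.4 ± 0.9 CPM (SD, n = 3), with a log2 fold change of -0.14 and an interval of -0.34 to 0.06. SLC7A8 and SLC7A10 did not pass the test, with log2 fold changes of -0.59 and 0.25.

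The cationic amino acid transporters showed a fall of SLC7A1, the widespread arginine and lysine carrier CAT1. SLC7A1 (ENSG00000139514, chromosome 13, 29509414 to 29595688) had 57.5, 54.2 and 52.4 CPM in control and 40.3, 38.6 and 40.0 CPM in MTR4 KD. Every control library lay above every MTR4 KD library. Its log2 fold change was -0.47 ± 0.06 (SE) with an adjusted p of 0.00998 in edgeR's test, a 1.38-fold lower level, and the difference was -0.46 within each library set. The call was lost without control replicate 1, MTR4 KD replicate 1 or MTR4 KD replicate 2, at adjusted p-values between 0.0602 and 0.0773.

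SLC7A2, the cationic transporter typical of liver, had 69.5, 75.5 and 64.6 CPM in control and 68.2, 67.4 and 59.6 CPM in MTR4 KD. The groups overlapped, with a log2 fold change of -0.10 and an adjusted p of 0.571. With the library set as a covariate the log2 fold change was -0.16 and the adjusted p 0.0236.

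Among the SLC6 carriers of osmolytes and creatine, SLC6A12 and SLC6A6 moved in opposite directions. SLC6A12, the betaine and GABA transporter BGT1 (ENSG00000111181, chromosome 12, 183848 to 214157), had 9.0, 9.54 and 10.8 CPM in control and 14.2, 16.8 and 16.2 CPM in MTR4 KD. The groups did not overlap. The log2 fold change was 0.69 ± 0.10 (SE) with an adjusted p of 0.0169 in edgeR's test, a 1.61-fold higher level, with 0.71 and 0.69 within the library sets. The call was lost without control replicate 1 (adjusted p of 0.105) or MTR4 KD replicate 2 (0.10). SLC6A12-AS1, which shares exon bases on the opposite strand, had 0 reads in every library.

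SLC6A6, the taurine transporter (ENSG00000131389, chromosome 3, 14402576 to 14489349), had 41.8, 39.2 and 42.6 CPM in control and 31.4, 31.3 and 31.8 CPM in MTR4 KD. The MTR4 KD values were close to each other and all below control. This was a log2 fold change of -0.39 ± 0.06 (SE) with an adjusted p of 0.0186 in edgeR's test, a 1.31-fold lower level, with -0.41 and -0.32 within the library sets. The call was lost without control replicate 1, control replicate 3, MTR4 KD replicate 1 or MTR4 KD replicate 2, at adjusted p-values between 0.109 and 0.143. GRIP2, which shares exon bases with SLC6A6 on the opposite strand, had 135 reads in all 6 libraries together. The ratio of SLC6A12 to SLC6A6 in RPKM was 0.369 ± 0.030 in control and 0.776 ± 0.064 in MTR4 KD (SD, n = 3). The creatine transporter SLC6A8 had 75.5, 62.8 and 73.3 CPM in control and 54.3, 55.7 and 59.8 CPM in MTR4 KD. Its groups did not overlap, with a log2 fold change of -0.32 and an adjusted p of 0.106, and with -0.25 and 0.00225 when the library set was a covariate. SLC6A8 also passed without control replicate 2, with a log2 fold change of -0.40 and an adjusted p of 0.0263. Near-identical copies of SLC6A8 lie elsewhere in the genome, so reads without a unique alignment can be missing from its counts, and the part of this in its values was not tested.

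**Figure D3:**
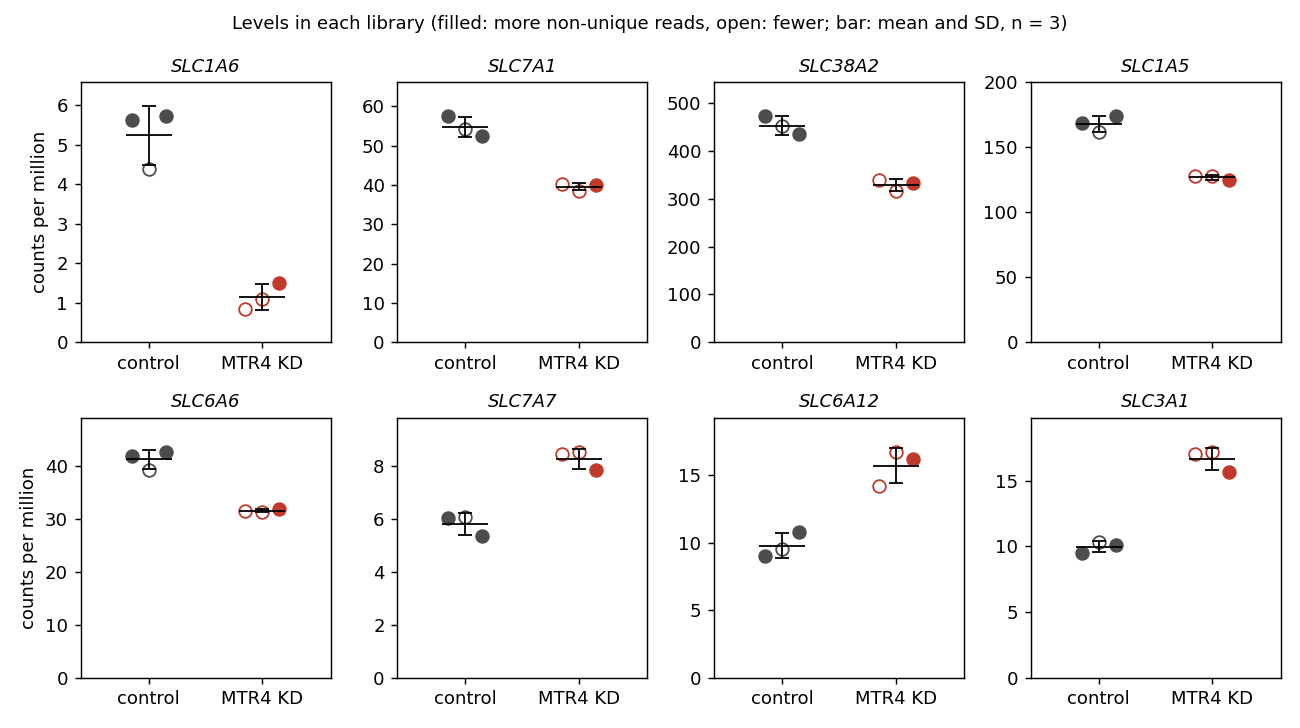
CPM (vertical axes, each from 0) in the 3 control (grey) and 3 MTR4 KD (red) libraries for the 8 transporter genes that rose or fell, with the mean and SD as black bars; filled points are libraries of the set with more non-unique reads and open points those of the other set. In each of the 8 panels the conditions do not overlap, and SLC1A6 falls from a mean of 5.24 to 1.14.

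No SLC36 carrier and no SLC43 carrier passed edgeR's test without the covariate or DESeq2's Wald test. Of the 4 tested genes 1, SLC43A2, had an unadjusted p under 0.05. SLC36A1, the lysosomal and plasma membrane carrier PAT1, had 42.9, 48.0 and 43 CPM in control and 42.2, 44.3 and 38.3 CPM in MTR4 KD. Its log2 fold change was -0.10 with an adjusted p of 0.554, and -0.16 with 0.0395 when the library set was a covariate. SLC36A4, a carrier of proline and tryptophan, had 82.7, 85.0 and 82.0 CPM in control and 79.1, 75.5 and 77.0 CPM in MTR4 KD. Its groups did not overlap, but with a log2 fold change of -0.11 and an adjusted p of 0.337 it did not pass. SLC43A1 had 144, 133 and 144 CPM in control and 146, 147 and 143 CPM in MTR4 KD, with overlapping groups. Its log2 fold change was 0.05 with an interval of -0.09 to 0.19. SLC43A2, the related carrier LAT4, had 5.69, 6.66 and 7.26 CPM in control and 5.36, 5.05 and 4.75 CPM in MTR4 KD. All MTR4 KD libraries lay below control, with a log2 fold change of -0.37 and an adjusted p of 0.161, and with -0.40 and 0.0262 when the library set was a covariate.

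The remaining SLC6 carriers were expressed at low levels. Of the 16 neurotransmitter and amino acid carriers of this family 5 were tested, and 0 passed with edgeR or with DESeq2's Wald test, whereas SLC6A19 had an unadjusted p under 0.05. SLC6A9, the glycine transporter, had 5.02 ± 0.62 and 5.70 ± 0.17 CPM (SD, n = 3), with a log2 fold change of 0.18. On the log2 scale the serotonin transporter SLC6A4 differed by -0.57, the gut and kidney carrier SLC6A19 by -0.70, SLC6A14 by -0.02 and the orphan carrier SLC6A16 by 0.13. Of the 31 tested transporters that did not pass, 23 had a 95% interval that included 0 and 8 had one that did not before adjustment, and their log2 fold changes ran from -0.85 to 1.28.

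Differences of mean log2 CPM were also taken within each library set, among libraries with a like share of non-unique reads. The sign was the same in both sets for 30 of the 39 transporters, for all 8 that passed the test and for all 9 that passed only with the library set as a covariate. The other 9 genes had opposite signs, among them SLC7A5. The genes that passed in either fit were called from these same libraries, so their like signs are no separate check. The same count over all tested genes is not given here. One set has 1 MTR4 KD library and the other 1 control library, so these differences have no test. SLC38A5, a carrier with under 1 CPM in every library, had 1.58 in one set and -0.01 in the other.

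**Figure D4:**
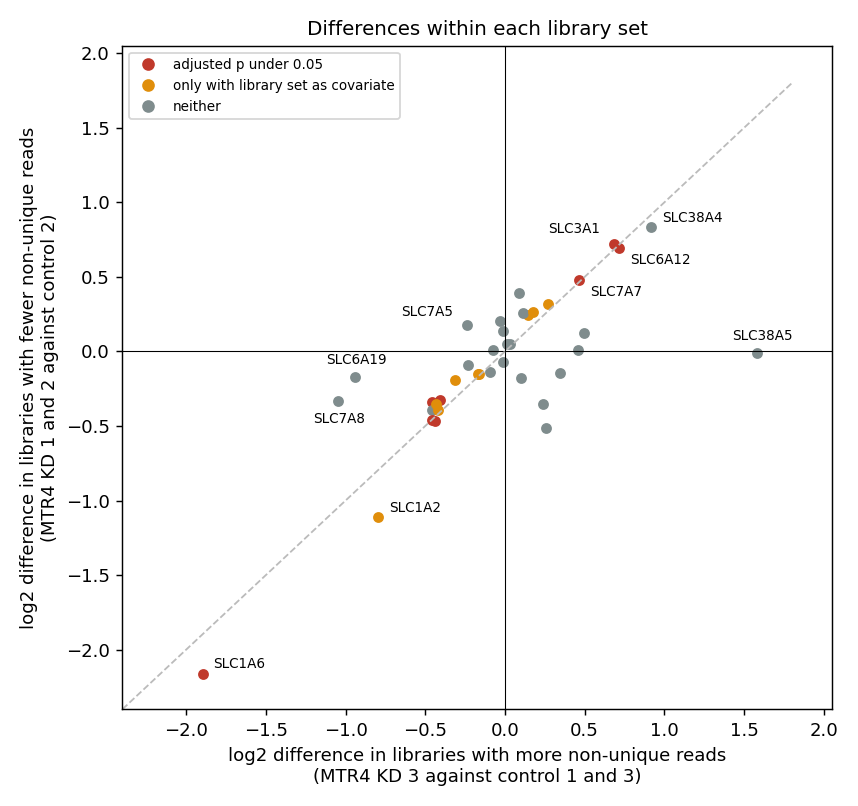
Log2 difference between MTR4 KD and control for the 39 tested transporters within the library set with more non-unique reads (horizontal axis) and within the set with fewer (vertical axis), with a dashed line where both are equal and colours as in the plot of fold changes by role. The 8 red points lie near the line, with SLC1A6 at -1.90 and -2.16, whereas SLC7A5 has -0.24 and 0.18.

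Other genes that carry, sense and use amino acids were read from 5 lists. Their counts are to be read beside the shares over all tested genes, which were 1.48% higher and 2.12% lower in edgeR's test, 9.43% and 10.8% with the library set as a covariate, and 2.71% and 3.83% with DESeq2's Wald test. Of 16 tested carriers outside the 7 families 0 rose and 0 fell in edgeR's test, and 6 had an unadjusted p under 0.05. Among these carriers DESeq2's Wald test called 1 higher and 1 lower, 4 rose and 3 fell with the library set as a covariate, and the median was -0.13 on the log2 scale. Of 35 tested genes of amino acid sensing by mTORC1 0 rose and 0 fell in edgeR's test, and 11 had an unadjusted p under 0.05. DESeq2's Wald test called 1 of the sensing genes higher, 8 rose and 1 fell with the library set as a covariate, and the median was 0.09.

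Of 32 tested genes of the amino acid response through the kinase GCN2 and the factor ATF4, 2 rose and 2 fell, with a median of 0.00. DESeq2's Wald test called 2 higher and 3 lower, and 6 rose and 9 fell with the library set as a covariate. The stress-induced regulator NUPR1 rose by 0.78 and the serine synthesis enzyme PSPH by 0.44, with adjusted p-values of 0.00240 and 0.00973 in edgeR's test. DDIT4, an inhibitor of mTORC1, fell by 1.45 and the secreted stanniocalcin STC2 fell by 0.71, with adjusted p-values of 0.000505 and 0.00105. DDIT4 had 44.7, 48.7 and 51.4 CPM in control and 17.0, 18.4 and 17.7 CPM in MTR4 KD. ATF4 itself had a log2 fold change of -0.24 with an adjusted p of 0.210, and of -0.18 with 0.0120 when the library set was a covariate. Some transporters known as ATF4 targets had log2 fold changes of -0.46 (SLC38A2), -0.47 (SLC7A1), -0.41 (SLC1A5), -0.14 (SLC7A11) and -0.09 (SLC7A5). SLC1A4, SLC6A9 and SLC3A2, also of this kind, had -0.02, 0.18 and 0.19. The selection is not complete.

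Of 22 tested genes of glutamine, glutamate and glutathione metabolism 1 fell and 0 rose, with a median of 0.06. This was the aspartate aminotransferase GOT1, with a log2 fold change of -0.45 and an adjusted p of 0.0120 in edgeR's test. DESeq2's Wald test called 1 of the 22 higher and 3 lower, 7 had an unadjusted p under 0.05 in edgeR's test, and 7 rose and 4 fell with the library set as a covariate. Of 19 tested genes of cysteine, glycine and serine metabolism 3 rose and 0 fell, and the median was 0.07. They were SDS, a serine dehydratase (0.68, adjusted p of 0.00952), PSPH, which is also in the list of the amino acid response, and the methionine adenosyltransferase MAT1A of the liver (0.40, adjusted p of 0.0483). DESeq2's Wald test called the same number in this list, and 5 rose and 0 fell with the library set as a covariate. The 5 lists together had 43 genes that passed with the library set as a covariate and 7 without it.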

How the data were processed

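RNA-seq was done on 3 control and 3 MTR4 KD libraries of PLC/PRF/5 cells. The authors deposited raw counts of reads per Ensembl gene, without normalization, and the submitters' processing notes name HISAT2 2.1.0, HTSeq, DESeq2 and the GRCh38 build. Whether counting used strand is not given in the sources used here. Groups and replicate numbers came from the sample labels. Symbols, biotypes and exon lengths were read from GENCODE as mapped to GRCh37. Of 60675 counted genes 56959 were found there, 42395 with a symbol. Positions are those of RefSeq (GRCh38.p14).

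Rows that name no gene were left out of the library sizes. Reads without a unique alignment made up 14.8% to 37.5% of all reads in these tables. Genes were kept by edgeR's filterByExpr (minimum count 10), scaled by TMM and compared by the quasi-likelihood test of edgeR on condition alone, with Benjamini-Hochberg adjustment over all tested genes (R 4.3.3, edgeR 4.0.16, limma 3.58.1, DESeq2 1.42.0, Python 3.11.15, pandas 2.3.3, matplotlib 3.10.9). RPKM is the scaled CPM divided by the kilobases of merged exons. The procedure was tested on simulated counts. The transporter genes and the other lists were chosen with earlier results of these data known. Values per library are given for transporters that passed in either fit, with a log2 fold change beyond 1, or among the 10 highest in RPKM, and of each other list at most 3 genes per direction are named. Alternatives were DESeq2's size factors, total counts, other filters, DESeq2's Wald test, the replicate block, the library set as a covariate, protein-coding genes only, a stricter threshold, and each library left out.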

Additional observations from a re-analysis of the deposited data

How the results depend on the processing

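Of the 8 transporters that passed the test, none changed direction under any alternative, and all 8 passed with DESeq2's size factors, total counts, both other filters, DESeq2's Wald test and protein-coding genes only. At an adjusted p under 0.01, 3 passed. With the library set as a covariate 17 passed (6 higher, 11 lower), 2 of them past a fold change of 2, and the 5 other lists had 43 genes that passed, beside 13 with DESeq2's Wald test and 7 in the main comparison. Over all genes, 650 passed, beside 3649 with the library set and 1143 with DESeq2's Wald test. Leaving out each library in turn gave 2 to 9 transporters (1 to 3 higher, 1 to 6 lower), 3 to 9 genes of the other lists and 137 to 803 of all genes. The fewest transporters were called without control replicate 1 and without MTR4 KD replicate 2. The median log2 fold change of the tested transporters was -0.020 with total counts, -0.036 without a filter, -0.041 with the library set, -0.020 for protein-coding genes only, and -0.073 to -0.023 when libraries were left out. MTR4 itself differed by -0.91 within the library set with fewer non-unique reads. The cause of these shifts was not tested.

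The labels do not state whether replicate numbers mark pairs. The correlation of same-numbered deviations was -0.24, 0.325 and 0.352. Control replicates 1, 2 and 3 correlated best with MTR4 KD replicates 3, 1 and 3. Correlations followed the library set, with 0.325 to 0.36 within a set and -0.488 to -0.227 across sets. They therefore cannot decide whether the numbers mark pairs. With the replicate block 8 transporters passed, and 857 genes in all, and no transporter gained or lost its call.

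Signs turned only for transporters that passed in no fit, with log2 fold changes near 0 or few reads. With the library set as a covariate the log2 fold change was 0.034 for SLC1A4, -0.034 for SLC7A6 and 0.088 for SLC38A10, and with the replicate block it was 0.038 for SLC6A14. Leaving out each library in turn gave -0.086 to 0.018 for SLC1A4, -0.20 to 0.40 for SLC6A14, -0.036 to 0.087 for SLC7A6, -0.12 to 0.12 for SLC38A3, -0.77 to 1.46 for SLC38A5, -0.13 to 0.016 for SLC38A6 and -0.15 to 0.053 for SLC38A10. Depth limits the genes with few reads most, and the widest 95% interval among the tested transporters reached 1.97 to either side of the log2 fold change.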
